A study of Oryza sativa with 10 samples.

Results

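In rice arrays of 5 tissues, 112 of 57194 non-control probe sets gave a signal in 10-day-old seedlings that was at most 0.5 times their signal in both leaf and root of plants aged 7 days. They were chosen by 2 conditions on the deposited signals. Each of the 4 leaf and root arrays had to read at least 500, which 10569 probe sets did, and the higher of both seedling arrays had to be at most 0.5 times the lowest of those 4 readings. The quotient of these readings, higher seedling over lowest organ array, is called the seedling ratio here. The 112 members were 1.06% of the probe sets at the signal minimum, and no more than 300 were to be kept, a limit that was not reached. Of the members, 84 carried 1 annotated gene each, which gave 81 genes because 3 genes had 2 member probe sets. The other 28 had no annotated gene, and 22 genes had a readable name. Among them were 6 genes of iron acquisition, NAS1, NAS2, NAAT1, YSL15, Nramp1 and IRO3, with a seedling signal 3.37 to 17.1 times below the lowest organ array.

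The plants were Oryza sativa japonica cultivar Zhonghua 11, grown in a phytotron. The groups were the seedling at an age of 10 days, the leaf and the root of seedlings at an age of 7 days, and the embryo and the endosperm of seeds taken 6 days after anthesis. Each had 2 biological repeats, so 10 arrays in all, and a pair of arrays limits the precision of every value below. All groups had the same genotype and no treatment, and the labels give neither a nutrient supply nor the parts of the plant that the seedling sample held. The seedling thus differed from leaf and root in age as well as in what was sampled, and age and sampled parts cannot be told apart. In these bulk samples fewer cells of a type and less RNA per cell cannot be told apart either.

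Grasses take up iron by secreting mugineic acids, small chelators that bind ferric iron in the soil and are taken back in as a complex. The chelators are built from nicotianamine, which nicotianamine synthases make and which nicotianamine aminotransferase begins to turn into deoxymugineic acid. Yellow stripe-like transporters carry the complexes, rice can also take up ferrous iron directly, and transcription factors that respond to iron supply control many of these genes in roots and shoots.

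Marker genes of each tissue were compared with the labels, and the seedling arrays held both leaf and root markers. The Rubisco activase gene OSRCAA1 read 22030.3 and 25822 in seedling, against 22189 and 19313 in leaf and 1275 and 1487 in root. The root silicon transporter gene LSI1 read 9878 and 4725 in seedling, against 989 and 815 in leaf and 17616 and 17769 in root. The second root silicon transporter gene, LSI2, read 793 and 239 in seedling, against 1.69 and 6.43 in leaf and 4613 and 5726 in root. Seedling array 1 thus had the higher root marker signals of both seedling arrays. The light-harvesting gene CAB2R, a leaf marker, also read 15512 and 3976 on the root arrays and 24306 on endosperm array 2, and the embryo markers OSH1 and VP1 and the 4 endosperm storage and starch markers were highest in their own tissue. The quotient of the 3′ and 5′ control probe sets of Gapdh, a measure of RNA integrity, was 11.3 and 9.45 in seedling, 26.3 and 29.1 in leaf, 2.04 and 24.0 in root, 1.82 and 1.65 in embryo and 4.71 and 5.28 in endosperm. It was lower in both seedling arrays than in both leaf arrays and lay between both root arrays. The part of RNA integrity in the results was not tested.

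The members had a median seedling ratio of 0.396, a lower quartile of 0.276 and a lowest value of 0.00909, where the 10569 probe sets at the signal minimum had a median of 1.36. These values chose the members, so they carry no test. A seedling ratio up to 0.1 was found for 10 members, a ratio over 0.1 and up to 0.25 for 13, and a ratio over 0.25 for 89. Over the members the median of the mean signal was 374 in seedling, against 1829 in leaf and 2367 in root. Over all probe sets at the signal minimum these medians were 1858 in seedling, against 1862 in leaf and 1927 in root. Few members were at the bottom of the scale in seedling: 4 of 112 (3.57%) read under 100 on both seedling arrays. The same 4 were 0.0378% of the probe sets at the signal minimum, as any such probe set meets the rule. A reading of 500 or more on both seedling arrays was found for 39 members (34.8%), against 95.4%. The opposite pattern, both seedling arrays at least 2 times the highest organ array, was found for 67 probe sets, or 0.634% of those at the signal minimum.

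**Figure D1:**
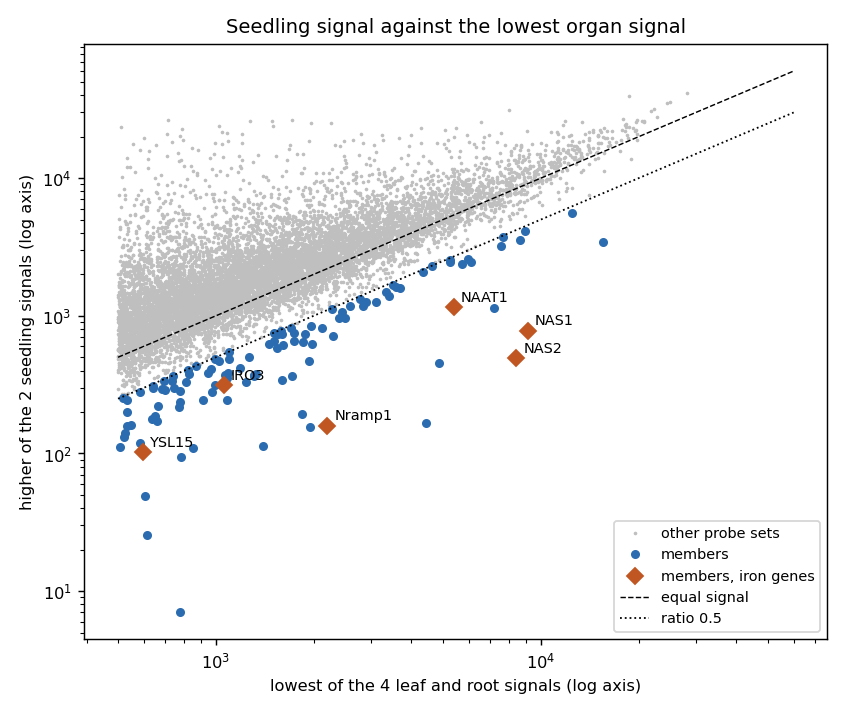
Higher seedling signal against the lowest of the 4 leaf and root signals, both as array signal on log axes, for the 10569 probe sets at the signal minimum (grey), the 112 members (blue) and the 6 members of iron acquisition (orange diamonds, named). The dashed line marks equal signals and the dotted line the ratio of 0.5 that bounds the members; NAS1, NAS2 and Nramp1 lie far below it, with ratios of 0.0858, 0.0585 and 0.0724.

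The 5 members with the smallest seedling ratio were LOC4351985, LOC4324944, LOC4325750, NAS2 and Nramp1. LOC4351985, which has no readable name, read 7.05 and 4.98 in seedling, against 7274 and 4553 in leaf and 2408 and 775 in root. LOC4325750, also without a readable name, read 3.18 and 25.4 in seedling, against 3024 and 2473 in leaf and 612 and 907 in root. Both were near the bottom of the scale in seedling and, with at most 38.6 and 66.8 on any seed array, in the seed as well. LOC4324944 had 2 member probe sets that did not agree in size. The first read 167 and 135 in seedling, against 5605 and 4423 in leaf and 9503 and 5985 in root, a ratio of 0.0377. The second read 2466 and 2048 in seedling, against 9092 and 9087 in leaf and 8212 and 6096 in root, a ratio of 0.404. As members, both by the rule put the seedling arrays below all 4 organ arrays.

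The threshold cut through a continuous range. Just inside were GRXC7, which codes for a glutaredoxin, TIFY11A, a jasmonate ZIM-domain gene, and LOC4326083, each with a ratio of 0.497. Just outside were LOC4342677 with 0.5004, LOC4343892 with 0.5005 and LOC4349339 with 0.502. A further 1957 probe sets at the signal minimum had both seedling arrays below all 4 organ arrays without being members, out of 2069 in all, or 19.6% of those at the minimum.

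In the limma model over all 10 arrays, 66 of the 112 members were lower in seedling than in leaf and 103 were lower in seedling than in root, at a Benjamini-Hochberg adjusted p under 0.05 and at least a 2-fold difference. Of all 30012 probe sets tested, 0.736% were lower in seedling than in leaf and 7.9% were lower in seedling than in root. The rule used these contrasts, so the counts describe how the members fare in the model and show nothing more. The same 66 were called against both organs and 9 against neither. Leaving out 1 array moved the count against leaf to 20 without seedling array 1, 27 without seedling array 2, 20 without leaf array 1 and 21 without leaf array 2, and it was 30 with the arrays scaled to the hybridization spike-ins.

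Under other scalings of the arrays all 112 members still had both seedling arrays below all 4 organ arrays. The highest ratio among them was 0.541 with the arrays scaled to their medians, 0.484 after quantile scaling and 0.673 with the arrays scaled to the spike-ins, and 108, 104 and 90 of them then met the rule.

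Of the named members, a gene of nicotianamine synthesis had the smallest seedling ratio. NAS2 (LOC4332607), a nicotianamine synthase gene, read 491 and 211 in seedling, against 10577 and 8401 in leaf and 19209.5 and 29620.1 in root. The seedling arrays were 17.1 times or more below every organ array, and the root arrays lay above the leaf arrays. In the seed NAS2 read 69.4 and 41.2 in embryo and 117 and 34.7 in endosperm, below both seedling arrays. NAS1 (LOC4332608), the neighbouring synthase gene, read 782 and 436 in seedling, against 10396 and 9121 in leaf and 19356 and 19187 in root. Seedling array 1 was the higher one for both genes. The rule set seedling apart from both organs, and both root arrays lay above both leaf arrays. NAS1 departed from NAS2 in the seed, with 149.9 and 157 in embryo and 5448 and 2083 in endosperm, so that its endosperm signal exceeded the seedling signal on both arrays. No protein-coding gene lies between NAS2 and NAS1 in the gene table, so the pair are next to each other in the genome. Binding of one gene's transcripts to the probes of the other was not tested.

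NAS3, the third nicotianamine synthase gene, did not follow them. It read 3167 and 2426 in seedling, against 1731 and 1808 in leaf and 8338 and 9103 in root, so its seedling signal lay between both organs. Its seedling minus root difference was called (log2 -1.65 ± 0.37 SE, limma adjusted p = 0.0114) and its seedling minus leaf difference was not (0.64 ± 0.37, adjusted p = 0.489).

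NAAT1 (LOC9267778), the nicotianamine aminotransferase gene, read 847 and 1158 in seedling, against 5426 and 5388 in leaf and 10782 and 6239 in root. The seedling arrays were at least 4.65 times below each organ array, and here seedling array 2 was the higher one. NAAT1 had 573 and 833 in embryo and 3137 and 1291 in endosperm, so embryo lay below both seedling arrays and endosperm above them.

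Of the iron transporter members, Nramp1 read higher in leaf than in root, while the leaf arrays of YSL15 lay within its root range. Nramp1 (LOC4342862), which codes for a metal transporter of the NRAMP family, read 159 and 104 in seedling, against 11878 and 8128 in leaf and 2270.4 and 2204 in root. It was the one iron gene among the members with both leaf arrays far above both root arrays. It was low in the seed, with 37.7 and 75.9 in embryo and 88.6 and 52.1 in endosperm. YSL15 (LOC9268232), the transporter that takes up ferric deoxymugineic acid from the soil in rice, read 102 and 42.1 in seedling, against 877 and 635 in leaf and 2853 and 597 in root. Its root arrays were far apart, and root array 2 was the lowest organ array. YSL15 read 14.6 and 42.3 in embryo and 72.5 and 105 in endosperm, which overlapped the seedling range.

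IRO3 (LOC4332972), a basic helix-loop-helix transcription factor gene known in rice as a repressor of the response to iron shortage, carries its name through a synonym in the gene table. That entry also lists OsIRO2, the name of another rice iron factor, so the identity of the locus is less sure than its values. It read 314 and 267 in seedling, against 2006 and 1529 in leaf and 2802 and 1058 in root. By the rule both seedling arrays lay below every organ array. The leaf arrays lay within the root range, and root array 1 again read higher than root array 2. In the seed it had 607 and 956 in embryo and 922 and 438 in endosperm, all above both seedling arrays.

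**Figure D2:**
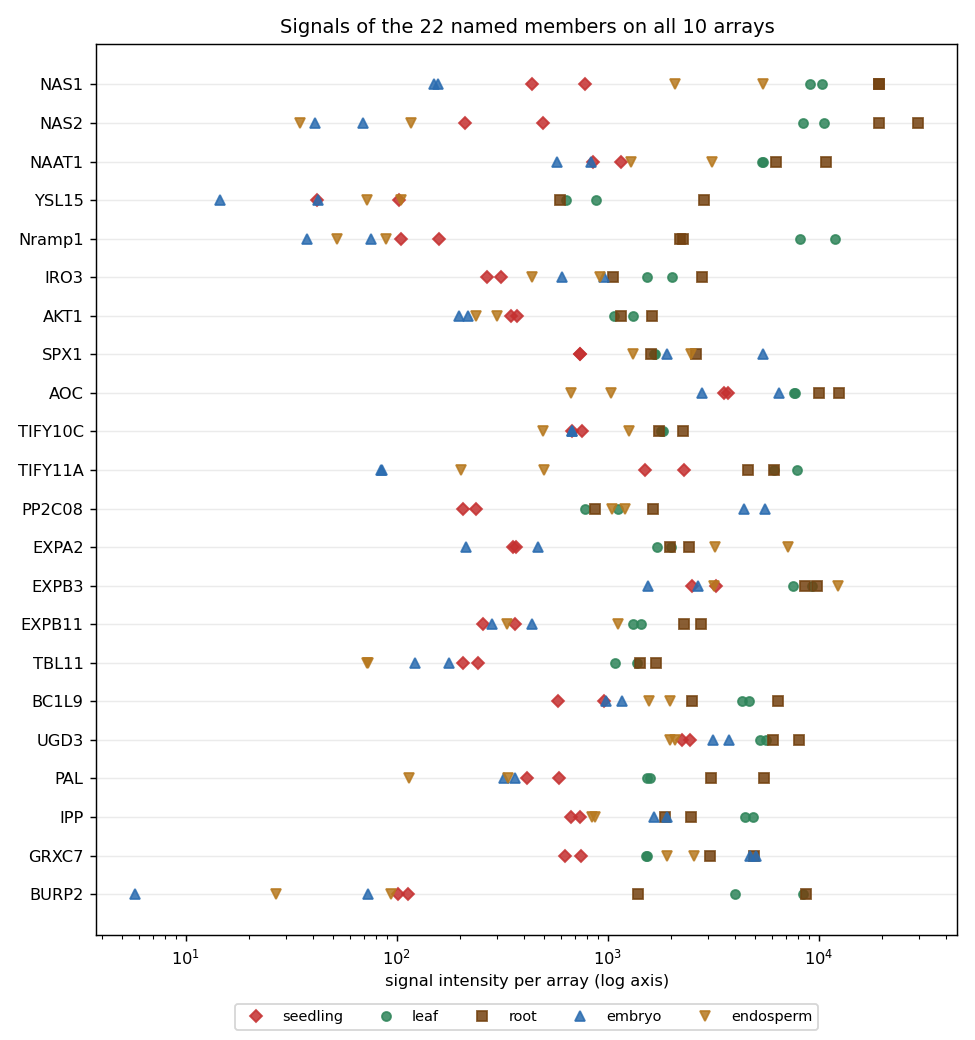
Signal on each of the 10 arrays for the 22 members with a readable gene name, on a log axis, with the iron genes on top and the other genes below; colours and shapes mark seedling, leaf, root, embryo and endosperm. By the rule, the seedling diamonds lie left of every leaf and root point in each row. The seed points run from far left of the diamonds (NAS2, TIFY11A) to right of all other points (embryo in PP2C08).

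A list of 19 rice genes of iron acquisition and transport was written after the members were known, to set them beside their pathway. It had 18 genes with a probe set and 11 at the signal minimum, of which 6 were members. The other 5 at the minimum were NAS3, YSL13, YSL16, NRAMP2 and NRAMP5, with seedling ratios of 1.83, 5.11, 1.35, 1.76 and 0.728. NRAMP5, which codes for the main manganese uptake transporter of rice roots, read 525 and 285 in seedling, against 721 and 827 in leaf and 1406 and 1329 in root, and so came closest to membership. It lies 2 protein-coding genes from Nramp1 in the gene table. NRAMP2, another NRAMP metal transporter gene, read 3507 and 3856 in seedling, against 2440.4 and 2357 in leaf and 2639 and 2186 in root, above both organs.

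The ferrous iron transporter genes IRT1 and IRT2 were under the signal minimum and could not be members. IRT1 read 52.3 and 84.3 in seedling, against 215 and 225 in leaf and 1557 and 1218 in root, a ratio of 0.393. IRT2 read 1.18 and 25.7 in seedling, against 452 and 384 in leaf and 2472 and 179 in root, a ratio of 0.144. Both had the seedling arrays below every organ array. Their seedling minus root differences were called, at log2 -4.07 ± 0.41 for IRT1 (limma adjusted p = 0.000258) and -4.70 ± 1.03 for IRT2 (adjusted p = 0.0107), and their seedling minus leaf differences were not (-1.51 ± 0.41, adjusted p = 0.0989, and -4.01 ± 1.03, adjusted p = 0.0794).

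Over the 12 tested genes of the iron list that were not members, 0 were higher and 0 were lower in seedling than in leaf by limma, where 1.97% and 0.736% of all tested probe sets were. Against root, 1 was higher in seedling and 5 were lower, where 11.1% and 7.9% of all tested probe sets were. The 5 were IRT1, IRT2, NAS3, NRAMP5 and YSL9. The 1 was IDEF1, which codes for a transcription factor that binds promoters of iron deficiency genes in rice. It read 719 and 806 in seedling, against 829 and 844 in leaf and 241 and 209.9 in root (seedling minus root 1.69 ± 0.28, adjusted p = 0.00267). The 12 exclude genes that the rule chose by these same contrasts, whereas the shares of all tested probe sets include them, so the counts cannot be weighed against the shares. With the members kept, 6 of 18 tested genes were lower in seedling than in leaf and 11 were lower than in root. All of those lower than in leaf were members. The rule chose the members by these contrasts, so the counts describe the list and are no test of it.

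The 6 iron members, chosen on the deposited signals, also met the rule under each other scaling of the same arrays. The highest ratio among them was then 0.393, with the arrays scaled to the spike-ins, where it was 0.296 as deposited. On the log2 scale of mean signals they were between -2.43 (NAAT1) and -6.24 (Nramp1) against leaf and between -2.73 (IRO3) and -6.12 (NAS2) against root.

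**Figure D3:**
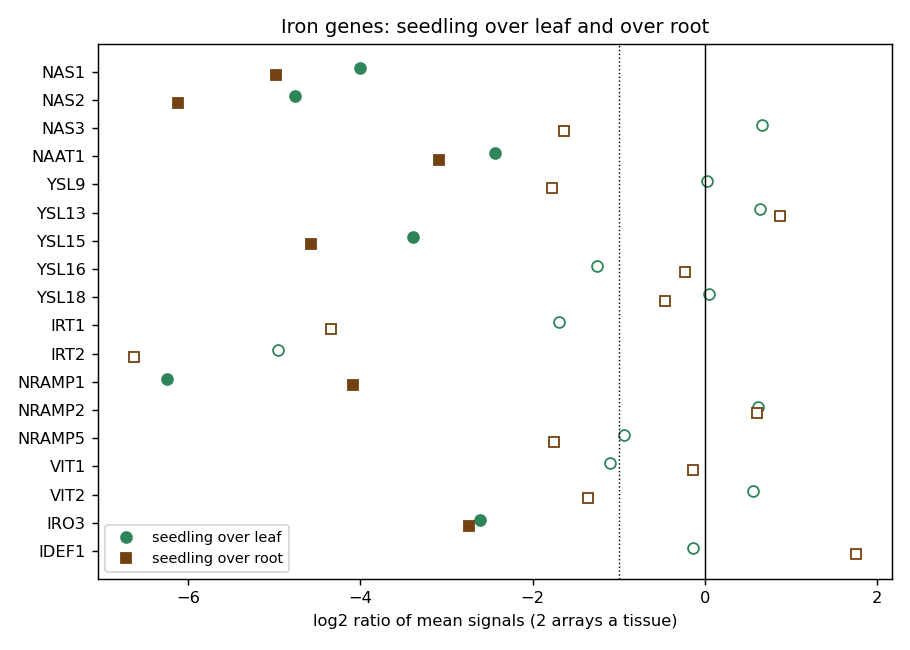
Log2 ratio of the mean seedling signal to the mean leaf signal (circles) and to the mean root signal (squares) for the 18 genes of the iron list with a probe set, 2 arrays per tissue; filled symbols are the 6 members, open symbols the other genes, and the dotted line marks a ratio of 0.5. By the rule, the members lie left of it for both organs. IRT1 and IRT2 also do, while NRAMP2 and YSL13 lie right of 0 for both.

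Jasmonate is a lipid-derived hormone that is made through allene oxide synthase and allene oxide cyclase, and whose targets are held back by JAZ repressors of the TIFY family. Of 36 genes with jasmonate names on the array, 19 were at the signal minimum and 3 were members. AOC, the allene oxide cyclase gene, read 3716 and 3565 in seedling, against 7756 and 7665 in leaf and 9996 and 12495 in root. The JAZ numbers that the gene table lists for TIFY11A and TIFY10C, the other members, conflict, so only their TIFY names are used. TIFY11A read 2291 and 1507 in seedling, against 7918 and 6152 in leaf and 4610.0 and 6151 in root. TIFY10C, another gene of that family, read 754 and 681 in seedling, against 1827 and 1784 in leaf and 1743 and 2283 in root. By the rule both seedling arrays lay below every organ array in AOC, TIFY11A and TIFY10C. Their ratios were close to the threshold (0.485, 0.497 and 0.433).

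Several relatives came near the threshold and others were far from it. JAZ7 had a ratio of 0.539, with 7216 and 7573 in seedling, against 14489 and 14883 in leaf and 14588 and 14059 in root. JAZ10, whose gene is separated from TIFY11A by JAZ11 alone, had a ratio of 1.08, and JAZ11 itself had 1.42. Of the 29 tested genes of this list that were not members, limma called 0 in either direction between seedling and leaf, and against root 0 were higher in seedling and 7 were lower. Of all tested probe sets, 1.97% were higher and 0.736% lower in seedling than in leaf, and 11.1% were higher and 7.9% lower in seedling than in root. These shares include the members, whereas the 29 exclude genes that the rule chose by these same contrasts, so the counts cannot be weighed against the shares. With the members kept, 1 of 32 tested genes was lower in seedling than in leaf and 10 were lower than in root. The rule chose the members among them by these contrasts, so these counts are no test of the list either.

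Several other named members are known from cell walls; they are put side by side here by their known roles, after the members were seen, and the gene list of phenylpropanoid and cell wall genes held 2 of them, EXPA2 and PAL. EXPA2, an expansin gene whose product loosens cell walls, read 358 and 368 in seedling, against 1987 and 1716 in leaf and 2437 and 1983 in root. Both seedling arrays lay 4.66 times or more below every organ array. In the seed EXPA2 read 469.7 and 213 in embryo, to either side of the seedling arrays, and 7167 and 3216 in endosperm, above all organ arrays. EXPB11, a beta-expansin gene, read 365 and 257 in seedling, against 1439 and 1313 in leaf and 2759 and 2299 in root. EXPB3, another beta-expansin gene, read 2503 and 3241 in seedling, against 7527 and 9285 in leaf and 9837 and 8634 in root. In the seed EXPB11 read 437 and 283 in embryo and 332 and 1123 in endosperm. For these 3 expansin genes, as for every member, the rule fixed that both seedling arrays lay below every organ array.

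TBL11, of the TRICHOME BIREFRINGENCE-LIKE family of wall polysaccharide acetyltransferases, read 205 and 243 in seedling, against 1081 and 1376 in leaf and 1421 and 1686 in root. BC1L9, a COBRA-like gene of the family linked to cellulose in culms, read 579 and 962 in seedling, against 4347 and 4678 in leaf and 2499 and 6411 in root. Its second probe set gave a ratio of 0.152, further from the threshold than the first (0.385). UGD3, a UDP-glucose dehydrogenase gene for wall sugar precursors, read 2241 and 2458 in seedling, against 5254 and 5620.2 in leaf and 6095 and 8068 in root. As members, TBL11, BC1L9 and UGD3 were by the rule below both organs on every seedling array. In the seed TBL11 read 177 and 122 in embryo and 73.3 and 72.0 in endosperm, below both seedling arrays. BC1L9 read 982 and 1173 in embryo and 1967 and 1566 in endosperm, above both seedling arrays.

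PAL (LOC4330034), a phenylalanine ammonia-lyase gene at the entry to phenylpropanoids, read 588 and 416 in seedling, against 1584 and 1539.7 in leaf and 3087 and 5473 in root. Its other 4 probe sets had ratios between 1.22 and 3.16, so the probe sets of this gene disagree and its place in the set rests on 1 of 5. It read 324 and 363 in embryo and 114 and 335 in endosperm, below both seedling arrays. BURP2, of the plant BURP-domain family, read 102 and 113 in seedling, against 4022 and 8407 in leaf and 8740.0 and 1396 in root. The organ arrays were spread over a wide range but all lay 12.3 times or more above the seedling, and its second probe set had a ratio of 0.22. BURP2 was low in the seed as well, at 5.79 and 73.3 in embryo and 94.1 and 26.9 in endosperm.

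The remaining named members are known from ion supply, signalling and redox control. AKT1, an inward potassium channel gene, read 347 and 373 in seedling, against 1065 and 1315 in leaf and 1627 and 1159.7 in root. Its probe set is of a type that can bind related transcripts, and it read 218 and 197 in embryo and 238 and 298 in endosperm, below both seedling arrays. SPX1, a phosphate-sensing regulator gene, read 736 and 738 in seedling, against 1683 and 1655 in leaf and 2607 and 1595 in root. PP2C08, a type 2C protein phosphatase gene of the family that acts in abscisic acid signalling, read 205 and 237 in seedling, against 1120.2 and 777 in leaf and 873 and 1637 in root. By the rule all 3 were below every organ array in seedling, SPX1 by 2.16 times and PP2C08 by 3.28 times at the closest arrays. SPX1 was higher than both seedling arrays in the seed, at 5459 and 1905 in embryo and 1316 and 2483 in endosperm.

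GRXC7 read 751 and 627 in seedling, against 1532 and 1512 in leaf and 4921 and 3063 in root, with root above leaf on both arrays. IPP (LOC4330457) read 670.2 and 742 in seedling, against 4856 and 4479 in leaf and 2490.2 and 1877 in root, with leaf above root on both arrays. The 2 genes thus had opposite orders of the organs.

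Of 24 gene lists matched by symbol, 5 held a member and 19 held none. The list of aquaporins and ion transport had 49 genes at the signal minimum and 5 members. These were AKT1 and the iron genes NAS1, NAS2, Nramp1 and YSL15 already given above, and none was an aquaporin. The list of phenylpropanoid and cell wall genes had 25 and 2 members, and that of abscisic acid had 49 and 1 member. No member was found among 45 genes of calcium signalling, 43 of growth regulators, 36 of ribosome, RNA and chromatin, 34 of zinc finger proteins and 23 of heat shock proteins at the minimum. Among all genes at the minimum, 22 of 1384 with a readable name (1.59%) and 81 of 8387 in all (0.966%) had a member probe set.

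Where a member gene had further probe sets, these followed its pattern in part. There were 16 for 12 genes, and 15 of them read at least 100 on all 4 organ arrays. Of these 15, 5 had a seedling ratio of at most 0.5 and 9 had both seedling arrays below all organ arrays. Their median ratio was 0.751, with a range from 0.152 to 3.16.

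Leaf and root were not equal in the members. Root read above leaf on both arrays for 55 members (49.1%), against 36.2% of all probe sets at the signal minimum, and leaf read above root for 15 (13.4%), against 24.9%. Leaf was at least 2 times root on all arrays in 7 members (6.25%, against 4.42% of all probe sets at the signal minimum) and at most 0.5 times root in 11 (9.82%, against 4.11%). In limma 9 members were called higher in leaf than root and 14 lower, where 10.9% and 8.87% of all tested probe sets were, and 5.68% and 6.44% of those at the signal minimum. The members' shares were 8.04% and 12.5%, so that the share called higher in leaf lay between both backgrounds. The lowest organ array was a leaf array for 69 members (61.6%, against 45.3% of all probe sets at the signal minimum) and a root array for 43 (38.4%, against 54.7%). The rule used these arrays, so the shares and the limma counts describe the members and are no test of them.

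The seed arrays played no part in the rule. Members were often low there: 22 of 112 (19.6%) read under 100 on all 4 seed arrays, where 1.93% of the probe sets at the signal minimum did. In embryo 30 members (26.8%) read under 100 on both arrays, against 3.82% of the probe sets at the minimum, and in endosperm 28 did (25%), against 3.82%. A signal of 500 or more on both embryo arrays was found for 45 members (40.2%), against 82.0%, and on both endosperm arrays for 38 (33.9%), against 72.6%. The median of the mean signal over members was 352 in embryo and 267 in endosperm, where that over all probe sets at the minimum was 1591 in embryo and 1515 in endosperm. Among the 23 members with a seedling ratio up to 0.25, 11 (47.8%) read under 100 on all seed arrays, and among the other 89 it was 11 (12.4%). Set against the seedling arrays, which the rule kept low, the members differed less from the background. Both embryo arrays lay above both seedling arrays in 38.4% of members, against 37.95% of the probe sets at the minimum. They lay below both in 46.4%, against 48.96%. Both endosperm arrays lay above both seedling arrays in 33.9% of members, against 35.31%, and below both in 53.6%, against 47.2%. These shares are descriptions over probe sets that share their arrays.

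**Figure D4:**
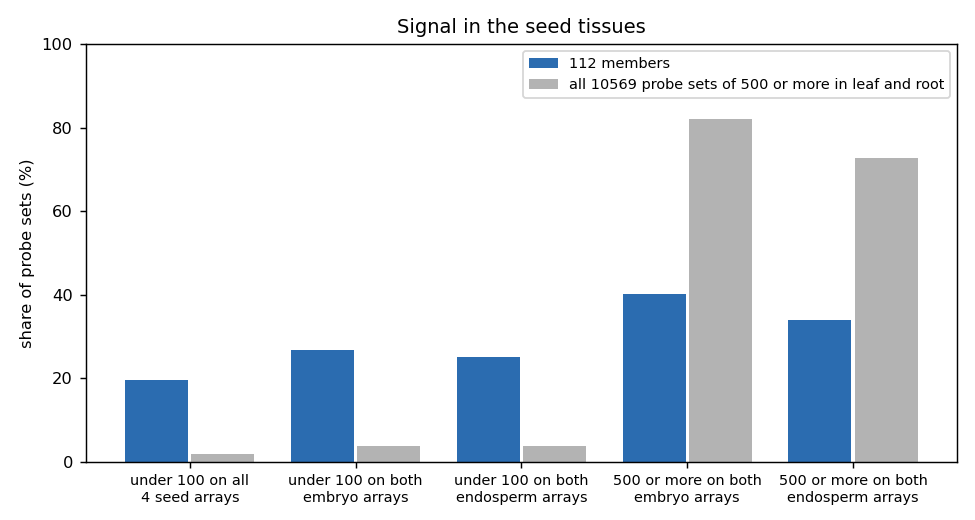
Share of probe sets, in percent, that read under 100 or at least 500 on the seed arrays, for the 112 members (blue) and all 10569 probe sets at the signal minimum (grey). Members were under 100 on all 4 seed arrays in 19.6% of cases, against 1.93%, and at least 500 on both embryo arrays in 40.2%, against 82.0%.

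Some members were high in the seed instead. Both embryo arrays lay above all organ arrays for 12 members (10.7%, against 25.2% of probe sets at the minimum), of which 1, PP2C08, has a readable name. Both endosperm arrays lay above all organ arrays for 7 members (6.25%, against 26.0%), of which EXPA2 is the one with a readable name. PP2C08 read 5555 and 4409.8 in embryo and 1204 and 1052 in endosperm. EXPB3 read 3199 and 12326 in endosperm, so those arrays were far apart.

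Embryo and endosperm were compared by limma because this contrast is independent of the rule. Of the 112 members, 29 (25.9%) were higher in embryo and 24 (21.4%) were lower, where 20.1% and 16.3% of all 30012 tested probe sets were, and 21.7% and 17% of those at the signal minimum. The members thus split in both directions, at shares a few points above the background. Their median difference was 0.00 (log2, embryo minus endosperm), with quartiles of -1.27 and 1.06, and the median of all tested probe sets was -0.02. The median size of the difference, whichever its direction, was 1.12 in members and 0.87 over all tested. Of the members, 39 had embryo above endosperm on both arrays (34.8%, against 34.3% of all tested and 37.5% at the signal minimum). In 37 it lay below (33%, against 34.4% and 36.9%). The first share lay between both backgrounds and the second a little under both. With the arrays scaled to the spike-ins, 43 members were higher and 11 lower, while the split of all tested probe sets became 36.1% and 4.07% and their median moved to 0.86. With the arrays scaled to their medians, that split was 24.5% and 10.7% and the median 0.24. With the 4 seed arrays alone, 25 of the 29 higher calls and 19 of the 24 lower calls were kept.

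Of the 22 named members, 4 were higher in embryo, 5 were lower and 13 were not called. AOC read 6473 and 2788 in embryo and 671 and 1036 in endosperm, a log2 difference of 2.33 ± 0.36 (SE, limma adjusted p = 0.000714). PP2C08, whose values stand above, differed by 2.12 ± 0.34 (adjusted p = 0.0009). GRXC7 read 5019 and 4724 in embryo and 1914 and 2552 in endosperm, a difference of 1.13 ± 0.28 (adjusted p = 0.00928). In AOC, PP2C08 and GRXC7 both embryo arrays lay above both endosperm arrays. IPP read 1656 and 1912 in embryo and 874 and 839.7 in endosperm, a difference of 1.04 ± 0.25 (adjusted p = 0.0074). GRXC7 and IPP sat near the 2-fold limit of a call, and UGD3, with 3737 and 3139.5 in embryo and 2076 and 1976 in endosperm, passed the adjusted p (0.0214) but not that limit (0.75 ± 0.22).

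NAS1 had the largest difference of the named members, at -4.32 ± 0.42 (limma adjusted p = 4.47e-05), and EXPA2 the next, at -3.85 ± 0.43 (adjusted p = 0.000101). The adjacent gene NAS2 was not called (-0.23 ± 0.51, adjusted p = 0.757) and read at most 117 on any seed array. TIFY11A read 84.9 and 84.5 in embryo and 501 and 202 in endosperm (-1.74 ± 0.40, adjusted p = 0.00678), whereas TIFY10C, at 680.1 and 678 in embryo and 1256 and 493 in endosperm, was not called (-0.21 ± 0.39, adjusted p = 0.705). EXPB3, at 2686 and 1552 in embryo and 3199 and 12326 in endosperm, was called lower (-1.61 ± 0.51, adjusted p = 0.0294), as was NAAT1 (-1.52 ± 0.42, adjusted p = 0.0158). Embryo lay below endosperm on every array in these 5, and whether any pair of genes differed from each other was not tested. The NAAT1 call was lost with the arrays scaled to their medians (adjusted p = 0.121) and to the spike-ins (0.495), over a range of 0.0021 to 0.495 across its alternatives. TIFY11A was lost under the same scalings (0.0513 and 0.157, over a range of 0.000791 to 0.157). EXPB3 was lost with the arrays scaled to the spike-ins (0.428), with the 4 seed arrays alone (0.0865), without the intensity trend (0.0526), without embryo array 2 (0.193) and without endosperm array 2 (0.165), over a range of 0.000685 to 0.428, and NAAT1 without embryo array 1 (0.117) and without endosperm array 1 (0.103). GRXC7 was lost without embryo array 1 (0.065), and fell under the 2-fold limit without endosperm array 1 (0.93), and IPP without embryo array 2 (0.0646), over ranges of 0.00262 to 0.065 and 0.00254 to 0.0646. After quantile scaling both fell under the 2-fold limit, at 0.99 for GRXC7 and 0.80 for IPP.

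The extremes of this contrast were members without a readable name, chosen here after their values were seen. The largest difference belonged to a probe set without an annotated gene, which read 5546 and 6833 in embryo and 40.2 and 13.0 in endosperm (7.26 ± 0.36, limma adjusted p = 4.45e-06). Like that of AKT1, this probe set is of a type that can bind related transcripts. Of the members with an annotated gene, LOC4324344 and LOC4342551 were highest in embryo over endosperm and LOC9270827 lowest. LOC4324344 read 19241 and 13232 in embryo and 261 and 239.9 in endosperm (5.91 ± 0.27, limma adjusted p = 3.9e-06). LOC4342551 read 13084 and 11902 in embryo and 222 and 193 in endosperm (5.81 ± 0.44, adjusted p = 1.33e-05), with 94.6 and 77.1 in seedling. LOC9270827 read 189 and 289.6 in embryo and 9459 and 3978 in endosperm (-4.62 ± 0.38, adjusted p = 2.04e-05). These groups lay far apart on both arrays of each tissue.

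**Figure D5:**
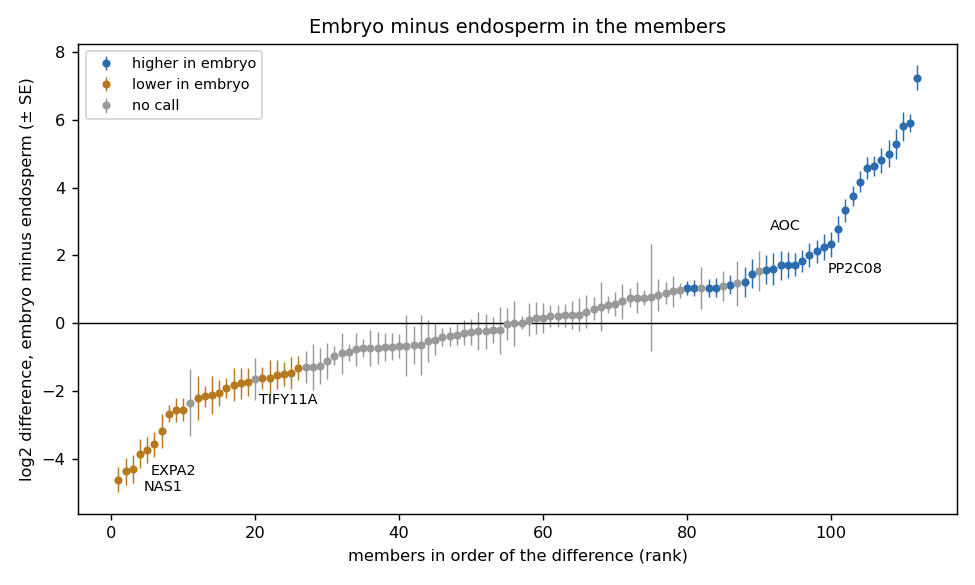
Embryo minus endosperm log2 difference (signal plus 16) for the 112 members in order of the difference, with bars of 1 standard error from limma over all 10 arrays; blue and orange points are the 29 members called higher and the 24 called lower in embryo, grey points were not called. The differences run from -4.62 to 7.26 with NAS1 and EXPA2 near the low end, and AOC and PP2C08 among the higher ones.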

How the data were processed

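The values are signal intensities that the authors deposited, 1 per probe set and array on a linear scale, from Affymetrix rice genome arrays hybridized with biotin-labelled RNA. They were made with MAS5 (version not given in the sources used here), per the submitters' processing notes. Each deposited array had a 2% to 98% trimmed mean of 500. No detection calls or scanner files were used, so background and depth per probe set are unknown, and signals under 100 are called low here only by convention.

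The 187 control probe sets (123 AFFX and 64 reporter sets) were left out. Genes came from the array platform's annotation and names from a rice gene table (assembly ASM3414082v1), also through synonyms, which was used for names and gene order only. All 81 member genes were found in it.

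For tests, each array was first set to that trimmed mean, and log2 was taken of the signal plus 16, so folds of low signals are understated. Probe sets of at least 100 on at least 2 arrays were tested (30012, all members included) in 1 limma model (limma 3.58.1, R 4.3.3) with a mean per tissue and moderated variances that follow the mean signal (eBayes, residual degrees of freedom 5, prior 5.14). A call is a Benjamini-Hochberg adjusted p under 0.05 with at least a 2-fold difference. Differences are given as log2 ± SE. The fit was tested on simulated data.

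Members, lists and named genes were chosen with earlier results of these data known, and the iron list after the members were seen. Genes with 1 annotated gene and a readable name were named; values per array were given for those with the smallest ratios, the largest embryo minus endosperm differences or the highest seed signals. The sample titles number the replicates and do not say whether equal numbers pair the tissues. Deviations from the tissue means correlated between -0.108 and 0.0963 over 10 tissue pairs, so no strong shared deviation was seen, and the main model used no pairing. Alternatives were other scalings, added constants, filters, call rules, variance models, thresholds of the rule, the replicate number as a block and fits with 1 array left out. Promoter and probe sequences were not used here.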

Additional observations from a re-analysis of the deposited data

How the results depend on the processing

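The number of probe sets meeting the rule was 112; it was 71 with a signal minimum of 1000, 57 with a ratio threshold of 0.4, 210 with 0.6 and 284 with tissue means in place of single arrays. Leaving out 1 array, which loosens the rule, gave 134 to 186, with 182 without seedling array 1 and 186 without seedling array 2. The count of members higher in embryo than endosperm (29) stayed within 1.5 times under every alternative run (22 to 43), and was 28 with the replicate number as a block and 22 to 33 without 1 array. The count lower in embryo (24) was 11 with the arrays scaled to the spike-ins, 26 with the replicate block and 19 to 24 without 1 array. The median embryo minus endosperm difference of the members was 0.63 with the spike-in scaling, where that of all tested probe sets was 0.86, and -0.06 to 0.11 without 1 array; the replicate block left it at 0.00. The spike-in scaling rests on 18 control probe sets. Of the 9 named calls between embryo and endosperm, NAS1, EXPA2, AOC and PP2C08 were kept under every alternative run, and no named difference changed sign. The count of members lower in seedling than leaf (66) was 31 at an adjusted p under 0.01, that against root (103) was 74 to 109 over its alternatives, and both were run under alternatives chosen after seeing the data. A planned search for promoter motifs was not run. Each tissue had 2 arrays, and no detection calls were used, so low signals could not be set against background.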
